A study of Canis lupus familiaris and Eptesicus fuscus and Equus caballus with 6 samples.

Results

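The repeat transcriptome of the horse testis was read from 1 mRNA library, from adult tissue of Equus caballus. Every row of its deposited table was taken, 986 repeat models of the 2452 listed for the 3 mRNA libraries of the series, and the class of each model is the last part of its identifier. The study asked how piRNAs, germ-line small RNAs that direct PIWI proteins to transposon transcripts, target elements in mammals of the Laurasiatheria with unlike element activity. It sequenced 1 small RNA and 1 mRNA library from the adult testis of the dog, the horse and the big brown bat (Eptesicus fuscus). The labels name no strain, genotype or treatment. The horse mRNA library therefore had no replicate, and nothing below has a replicate check. Host genes were not analysed here, so the testis label was not checked against marker genes. In whole tissue, fewer cells of a type and less RNA per cell cannot be told apart.

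Transposable elements are repeated DNA families, and each model here stands for all copies of a family that resemble it. LINEs carry their own reverse transcriptase, and SINEs are short and move with LINE enzymes. LTR elements are related to retroviruses, and DNA transposons move without an RNA step. RNA that matches a family can come from an element's own promoter or from a copy inside the transcript of a host gene, and a table of families does not separate these sources.

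The values are TPM, RSEM's estimate of transcript abundance per unit of model length, scaled to a fixed total over the 986 models of this library, rRNA included. Each TPM has a deposited lower and upper bound. Reads were rebuilt from TPM and model length and came to 666118, of which the 3 rRNA models took 72.1% and the 722 element models (LINE, SINE, LTR, DNA and Helitron classes) took 26.3%, or 174903 reads. TPM was above 0 in 479 models, 48.6% of all. At least 10 rebuilt reads stood behind 287 models, 29.1% of all, and at least 100 behind 110. Of the elements, 439 (60.8%) were above 0 and 271 (37.5%) had at least 10 reads. These percentages are the background against which each group is read below.

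Over all element models, retroelements were detected more often than DNA transposons. TPM was above 0 in 21 of 25 SINE models (84.0%), 108 of 138 LINE models (78.3%), 223 of 353 LTR models (63.2%) and 87 of 202 DNA models (43.1%). No Helitron model, of 4, was above 0. With zeros included, the median TPM was 3861 in SINEs, 26.4 in LINEs, 12.4 in LTR elements and 0 in DNA transposons. At least 10 reads were reached by 18 SINE, 75 LINE, 136 LTR and 42 DNA models. LTR and DNA models lay close together once the models named for the horse, defined below, were left out. Then 46.7% of LTR and 42.8% of DNA models were above 0, and 17.9% and 20.4% had at least 10 reads. LINEs held 71.5% of element reads (exact 95% binomial interval 71.3 to 71.7%), SINEs 16.8% (16.67 to 17.03%), LTR elements 10.2% (10.1 to 10.4%) and DNA transposons 1.48% (1.42 to 1.53%). In TPM, which divides by length, the order of the first 2 was the reverse, with 71.6% of element TPM in SINEs and 15.0% in LINEs. These intervals and all floors cover counting error only.

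**Figure D1:**
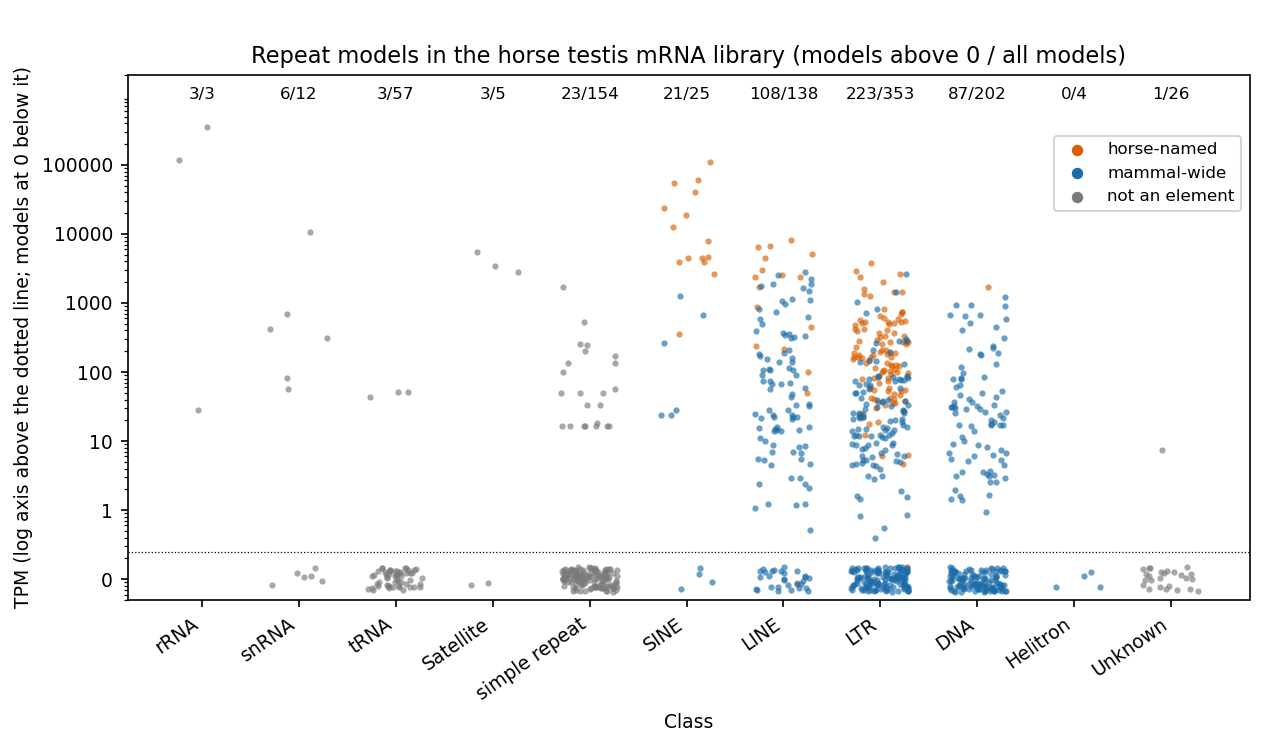
TPM (log axis above the dotted line, models at 0 below it) by class, 1 point per model, coloured as horse-named, mammal-wide or not an element, with models above 0 over all models printed on top; scRNA, low-complexity and 7SK models are not drawn. SINE models reach the highest levels among elements, up to 109026 TPM, and 115 of 202 DNA models lie at 0.

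A TPM of 0 did not have the same meaning for every model. The upper bound of the 507 models at 0 ran from 0.995 to 197 TPM, with a median of 29.1, and corresponded to a median of 2.97 rebuilt reads (2.91 to 14.2). Short models thus had high ceilings. The 131 simple repeats at 0 had upper bounds of 49.0 to 69.9 TPM, while those of the 130 LTR models at 0 ran from 0.995 to 44.3 TPM. In 8 models at 0 the upper bound lay over 4 reads. MER47B, a Tigger-related DNA element, had an upper bound of 94.3 TPM (14.2 reads), and Tigger17c one of 21.3 TPM (9.46 reads). The hAT elements MER97b, MER97c and MER97d (13.5, 12.4 and 10.8 TPM), Charlie2b (4.65 TPM), LTR33C (18.5 TPM) and the (CGG)n simple repeat (69.9 TPM) were the others. These 8 were named after their values were seen.

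Of the 52 classes, 20 had no model above 0, and these held 77 models. All 15 models of CR1, an ancient LINE group, were at 0, with upper bounds of 1.90 to 57.8 TPM (median 29.1). The 4 Helitrons, which move by rolling-circle replication, had upper bounds of 7.04 to 25.5 TPM. Their share of element reads was 0%, with an exact upper limit of 0.00211%. The 4 scRNA models had upper bounds of 82.7 to 129 TPM. Among 26 models of unknown class, UCON19 alone was above 0, at 7.39 TPM and 1 rebuilt read.

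Over all element classes together, families named for the horse were detected far more often than the other element families. A family counted as horse-named where its name carries EC, for Equus caballus, or where it is an ERE, an equine SINE. The other families are called mammal-wide by their names only, and a few carry labels of other lineages, such as L1PB4 or Plat_L3. TPM was above 0 in 143 of 146 horse-named models (97.9%) and in 296 of 576 mammal-wide models (51.4%), against 60.8% of all elements. At least 10 reads stood behind 125 horse-named models (85.6%) and 146 mammal-wide models (25.3%), against 37.5% of all elements. The median level was 225 TPM (quartiles 82.4 and 806) in horse-named and 1.195 TPM (0 and 28.1) in mammal-wide models. Among models above 0, the mammal-wide median was 26.0 TPM. Horse-named families held 88.1% of element reads (87.9 to 88.2%) and 89.1% of element TPM. They filled 35 of the 50 and 60 of the 100 highest places among elements.

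The ceilings of the mammal-wide zeros were low beside the horse-named levels. For the 280 mammal-wide models at 0, the upper bound had a median of 15.4 TPM and a highest value of 138 TPM. All 280 lay below the horse-named median, and 275 lay below the horse-named lower quartile. The upper bound of a model at 0 stood for a nearly constant number of reads (median 2.97). These ceilings therefore mostly follow model length. They show what the depth could detect and are no separate evidence for the difference between the sets. Only 3 horse-named models were at 0. L1MAB1_5_EC, a 5-prime L1 model of 1704 nt, had an upper bound of 4.67 TPM. LTR67_EC (433 nt) and LTR74_EC (312 nt), both LTR models, had upper bounds of 19.0 and 26.9 TPM. The naming is not a clean split by species, since 4 horse-named LTR models (ERV54-EC_LTR, LTR10_EC, LTR9A_EC and LTR9B_EC) are also listed for the dog, while 3 mammal-wide models (EqERV-beta1, MER2B and MER66B) are not.

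The median model length differed little between both sets (546.5 nt and 632.5 nt), and the difference in level held in every length range below. These ranges do not match the sets by class. DNA transposons were 1 of the 146 horse-named and 201 of the 576 mammal-wide models. In models under 200 nt, 5 of 5 horse-named and 8 of 31 mammal-wide models (25.8%) were above 0, with medians of 3861 and 0 TPM. From 200 to 499 nt it was 43 of 45 against 57 of 157 (36.3%), with medians of 284 and 0 TPM. From 500 to 999 nt it was 60 of 60 against 108 of 214 (50.5%), with medians of 171 and 2.18 TPM. From 1000 to 2999 nt it was 5 of 6 against 90 of 124 (72.6%), with medians of 332 and 11.8 TPM. At 3000 nt and above it was 30 of 30 against 33 of 50 (66.0%), with medians of 255 and 1.77 TPM. Up to 2999 nt the detected share of mammal-wide models rose with length, and the horse-named share was near its ceiling in each bin but the one with 6 models.

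**Figure D2:**
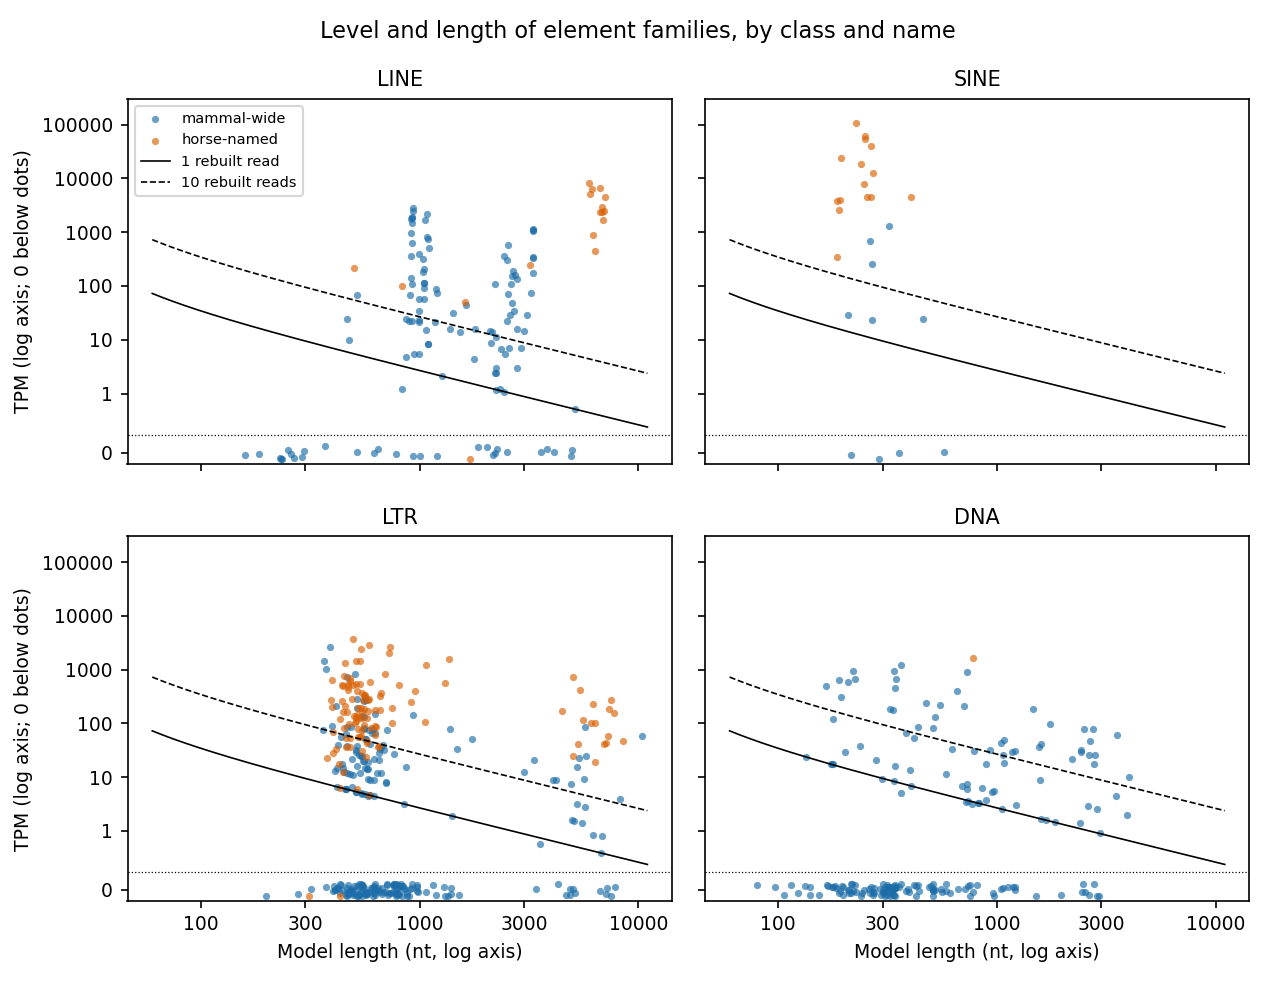
TPM (log axis above the dotted line, models at 0 below it) against model length in nt (log axis) for LINE, SINE, LTR and DNA models, horse-named and mammal-wide, with lines for the TPM that 1 and 10 rebuilt reads give at each length. Of the horse-named models, 125 lie at or above the line of 10 reads and 3 lie at 0.

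Full-length horse L1 families led the LINEs. L1 is an autonomous LINE found in placental mammals. In 16 horse-named L1 models, 15 were above 0, all 15 with at least 10 reads, and the median was 2400 TPM over models of 6279.5 nt median length. In 95 mammal-wide L1 models, 87 were above 0 (91.6%), with 57 at 10 reads or more and a median of 34.8 TPM. The share above 0 in L1 thus hardly differed by name (93.75% horse-named and 91.6% mammal-wide), unlike the level. The horse-named models held 108796 rebuilt reads and the mammal-wide ones 15851. L1-2_EC was highest at 8224 TPM (bounds 8019 and 8267), followed by L1-1_EC at 6734 TPM (6564 and 6774) and L1-5_EC at 6375 TPM (6202 and 6420). L1-2B_EC (5188 TPM), L1-4B_EC (4498 TPM) and L1-4_EC (2954 TPM) came next. The bounds of neighbours in this series of 6 did not overlap. L1-5A2_EC (2499 TPM), L1-3_EC (2402 TPM) and L1-5B_EC (2397 TPM) overlapped in their bounds. The 3 partial 5-prime models of horse L1 that were above 0 were lower, L1-5_A5end_EC at 217 TPM, L1-5_B5end_EC at 101 TPM and L1MAB_5end_EC at 49.3 TPM.

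Older L1 families, whose names begin L1M, have 89 mammal-wide models, each of 1 element part. (The 5 horse-named L1M models are counted above.) Of the 3-prime ends, 43 of 43 were above 0, with a median of 138 TPM. The second reading frame, which encodes the reverse transcriptase, was above 0 in 6 of 6 models, with a median of 706 TPM and a maximum of 1129 TPM in L1M4_orf2. Of the 5-prime ends, 33 of 40 were above 0, 15 with at least 10 reads, and the median was 9.98 TPM. The median lengths were 990 nt for 3-prime ends, 3294 nt for the reading frame and 2148.5 nt for 5-prime ends.

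Within the 3-prime ends, the L1MB series stood highest by TPM. Its 7 models ran from 957 to 2778 TPM, with a median of 1860 TPM, against medians of 180 TPM in 9 L1MA, 123 TPM in 8 L1MC, 399 TPM in 3 L1MD and 24.025 TPM in 16 L1ME models. TPM divides by length, and the median length was 925 nt in L1MB and L1ME, 1047 nt in L1MA, 1106 nt in L1MD and 2661.5 nt in L1MC. L1MB also held the most rebuilt reads, 4569 against 2053 in L1MC. Of the 10 highest mammal-wide elements, 8 were such 3-prime ends. These were L1MB7_3end (2778 TPM), L1MB3_3end (2532), L1MC1_3end (2192), L1MB8_3end (1894), L1MB4_3end (1860), L1MB2_3end (1764), L1MA9_3end (1664) and L1MB5_3end (1477). The bounds of L1MB7_3end (2573 and 2941 TPM) overlapped those of L1MB3_3end (2333 and 2687 TPM). Both other places were held by MLT1B and MLT1A0, LTR elements described below.

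The remaining LINE groups all lay below the median of the horse-named L1 models, 2400 TPM, and RTE-1_EC was the highest of them. HAL1, a relative of L1, was above 0 in 4 of 4 models but low, with HAL1 at 22.2 TPM (14.0 and 33.0) and HAL1M8 at 14.5 TPM (8.53 and 22.8). L2, an old LINE spread through mammals, was above 0 in 4 of 4 models, led by L2a_3end at 67.8 TPM, L2 at 28.4 TPM and L2b_3end at 24.02 TPM. The bounds of L2a_3end overlapped those of L2. Of 6 RTE models, 2 were above 0, and RTE-1_EC stood at 240 TPM (212 and 266), on 293 rebuilt reads, while L4_C_Mam stood at 0.510 TPM.

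The equine SINEs carried the highest levels of any element. ERE elements derive from tRNA, and all 14 ERE models were above 0 with at least 10 reads. ERE1 stood at 109026 TPM (105854 and 110045), ERE2 at 61053 TPM (58898 and 62017) and ERE3 at 54407 TPM (52413 and 55387). The lowest, ERE4B, stood at 352 TPM (218 and 525). ERE1B (40448 TPM), ERE3D (23576), ERE3B2 (18807), ERE1C (12444) and ERE3B (7862) lay between them, and the bounds of neighbours did not overlap from ERE1 down to ERE3C at 4576 TPM. ERE3C and ERE4 (4533 TPM) were not separate. Also horse-named, SINE2-1_EC stood at 4421 TPM (4047 and 4719).

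Mammal-wide SINEs were far lower. MIR, an ancient tRNA-derived SINE that is a partner of L2, had 4 of 4 models above 0. MIR stood at 674 TPM (512 and 849) and MIRb at 261 TPM (164 and 375), with bounds that did not overlap, and MIR3 and MIRc lay at 28.6 and 23.8 TPM. AmnSINE1 and AmnSINE2 were at 0, with upper bounds of 14.2 and 23.3 TPM. 7SLRNA, the RNA of the signal recognition particle, is filed among the SINEs and stood at 1281 TPM (1071 and 1484).

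Endogenous retroviruses of the ERV1 class split by name. In 85 horse-named ERV1 models, all 85 were above 0, 70 with at least 10 reads, and the median was 185 TPM. In 74 mammal-wide ERV1 models, 28 were above 0 (37.8%), 11 with at least 10 reads, the median was 0 and the highest was MER31A at 84.1 TPM (46.2 and 133). The median lengths were 539 and 613 nt. The horse-named set took 12460 rebuilt reads and the other 286. ERV1-1N-EC_LTR led at 3754 TPM (3439 and 4004), followed by MER34A1_EC at 2877 TPM (2634 and 3081), MER34A_EC at 2622 TPM (2408 and 2791) and MER34B_EC at 2392 TPM (2162 and 2592). The first did not overlap the next, while MER34A1_EC and MER34A_EC overlapped. The lowest was LTR75B_EC at 4.64 TPM, on 1 rebuilt read.

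Some models with EC stand beside a model of the same name without EC, and these pairs were chosen after their values were seen. MER34A1_EC was 37.9-fold above MER34A1, which stood at 75.8 TPM (43.6 and 118). MER34A_EC was 50.9-fold above MER34A, at 51.5 TPM (25.4 and 89.6). LTR45_EC stood at 112 TPM (70.1 and 165) while LTR45 was at 0 with an upper bound of 15.5 TPM, and LTR73_EC stood at 42.7 TPM (20.6 and 77.3) while LTR73 was at 0 with an upper bound of 14.2 TPM. A further 3 pairs share a name but are filed in ERV1 with EC and in ERVL without it. LTR16A_EC stood at 190 TPM (142 and 244) and LTR16A at 12.2 TPM (2.04 and 39.1), LTR16B_EC at 331 TPM (255 and 411) and LTR16B at 0 with an upper bound of 17.7 TPM. LTR75B_EC at 4.64 TPM (0.148 and 21.8) overlapped LTR75B, at 0 with an upper bound of 13.5 TPM. The horse version was thus listed higher in 7 of 7 LTR pairs, with separate bounds in 6. The L1 pairs went the other way. L1MB3_EC, a model of 6214 nt, stood at 873 TPM, 0.345 times the 3-prime model L1MB3_3end of 930 nt. L1MC1_EC (6345 nt) stood at 455 TPM, 0.207 times L1MC1_3end (1080 nt). These L1 models do not cover the same part of the element, so their ratio is not one of like sequences. Reads that match both members of a pair are divided between them by RSEM's estimate.

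In the ERVK class, of retroviruses related to betaretroviruses, 10 of 10 horse-named models were above 0. LTR7B_EC stood at 2007 TPM (1822 and 2157), ERV2-1N-EC_LTR at 1573 TPM (1450 and 1670) and ERV2-1-EC_LTR at 752 TPM (618 and 882), and no neighbours among the 3 overlapped. EqERV-beta1, whose name refers to the horse without EC, stood at 59.4 TPM (51.0 and 67.3) over 10434 nt. ERVL, an old and widespread class, had a lower median over all its models (5.67 TPM) than ERV1 (46.3 TPM) or ERVK (126 TPM). Its detected share differed less by name than that of ERV1. ERVL was above 0 in 16 of 17 horse-named models (median 75.02 TPM) and in 53 of 97 mammal-wide models (54.6%, median 2.80 TPM). LTR21B1_EC (508 TPM; 427 and 591), LTR21_EC (407 TPM; 340 and 473) and MER68 (303 TPM; 231 and 381) led it, and no neighbours in the whole class had separate bounds.

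In MaLR elements, non-autonomous relatives of ERVL, the models above 0 were all mammal-wide. In 34 mammal-wide MaLR models, 28 were above 0, and the 1 horse-named model was LTR67_EC, at 0. MLT1B stood at 2598 TPM (2324 and 2852), MLT1A0 at 1420 TPM (1213 and 1619) and MLT1A at 1041 TPM (861 and 1206). The bounds of neighbours among the 3 did not overlap, though those of MLT1A0 and MLT1A nearly met. MLT1A1 was at 0 with an upper bound of 20.2 TPM. Of the 45 LTR models outside ERV1, ERVL and MaLR, 13 were above 0, and beside the ERVK models these were LTR55 at 4.93 TPM and MamGyp-int, a Gypsy element, at 1.54 TPM.

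The LTR of a horse retrovirus was listed higher than the internal part of exactly the same name in each such pair, but not for every LTR variant. The LTR flanks the element and holds its promoter, and the internal part holds the coding genes. In 17 families with both models, a set chosen after values were seen, the LTR had the higher TPM in 17, with bounds that did not overlap in 14. The median ratio was 4.99, from 1.01 to 18.6. ERV2-1-EC stood at 752 TPM in the LTR and 40.5 TPM inside (18.6-fold), ERV1-2-EC at 284 and 24.7 TPM (11.5-fold), ERV2-1N-EC at 1573 and 167 TPM (9.44-fold), and ERV1-1-EC at 1419 and 155 TPM (9.15-fold). The 3 families without separate bounds were ERV1-2N-EC (423 and 420 TPM), ERV1-5-EC (22.3 and 19.1 TPM) and ERV2-2-EC (80.0 and 42.6 TPM). An intact element holds a pair of LTRs for each internal part, and solitary LTRs also occur. Their part in the ratios was not tested. Another 14 LTR models carry such a family name with added letters or digits, and 9 of them lay above the internal part, 8 with separate bounds. The other 5 lay below it. ERV1-3N1-EC_LTR stood at 55.4 TPM (27.2 and 94.2) against 233 TPM inside, and ERV1-5N1B_EC_LTR at 52.5 TPM (23.1 and 96.1) against 115 TPM, both with separate bounds. ERV1-3C-EC_LTR (177 and 185 TPM inside), ERV3-1B-EC_LTR (37.0 and 40.9 TPM) and ERV54B-EC_LTR (53.4 and 58.5 TPM) had overlapping bounds.

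**Figure D3:**
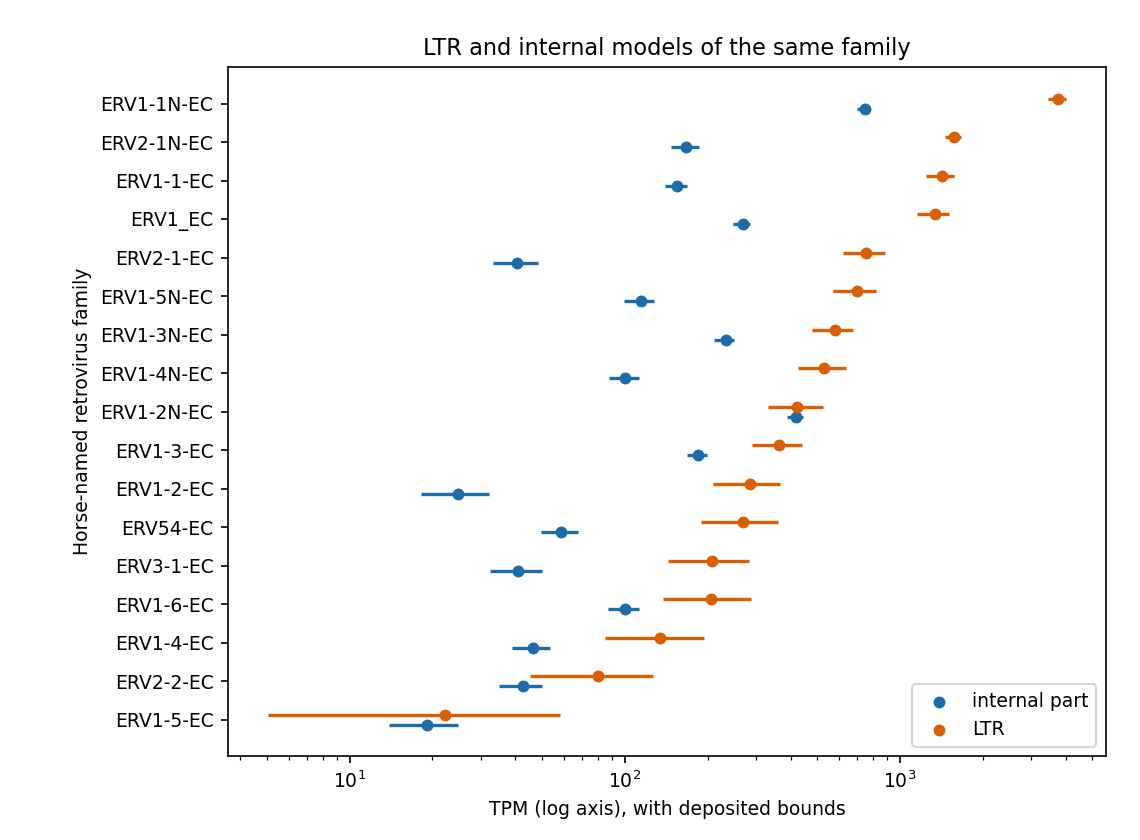
TPM (log axis) of the LTR model and of the internal model for each of 17 horse-named retrovirus families, 1 family per line, with bars for the deposited bounds. The LTR point lies to the right of the internal point in each family, and the bars overlap in ERV1-2N-EC, ERV2-2-EC and ERV1-5-EC.

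DNA transposons were low and mostly mammal-wide by name. The 1 horse-named DNA model, Mariner-N1_EC of the Tigger class, led them at 1676 TPM (1516 and 1811). It was followed by MER47A at 1208 TPM (993 and 1432) and MER44A at 923 TPM (645 and 1160), and its bounds did not overlap those of MER47A. In the 40 mammal-wide Tigger models, 23 were above 0 (57.5%). Of 112 models of the hAT superfamily, 55 were above 0 and 26 had at least 10 reads. Its Charlie class was led by short non-autonomous elements, MER20 at 924 TPM (711 and 1148), MER58A at 665 TPM (486 and 871) and MER5A at 647 TPM (463 and 860), and the first was not separate from the next. In the Tip100 class, MER45A (119 TPM, on 7.02 reads), Zaphod2 (59.8 TPM, on 80.0 reads) and MER96B (53.4 TPM, on 8.02 reads) led, and in Blackjack MER63B (85.5 TPM), MER63C (32.6 TPM) and MER63D (25.9 TPM).

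The Tc/mariner superfamily, with Tigger in it, had 30 of 55 models above 0. In its Tc2 class Kanga1 stood at 95.5 TPM (71.9 and 119), 15.8-fold above Kanga1c at 6.03 TPM, with bounds that did not overlap, and Kanga11a was at 5.53 TPM. Of 2 PiggyBac models, Looper was above 0, at 37.1 TPM (23.0 and 54.3). Of the other 33 DNA models, MER130 alone was above 0, at 1.67 TPM.

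Of the 264 models that are not elements, 2 rRNA models stood highest. SSU rRNA stood at 357524 TPM and LSU rRNA at 119190 TPM, both models of the human sequence by name, while 5S rRNA stood at 28.4 TPM on 1.05 reads. Satellites, the tandem repeats of centromeres and other heterochromatin, were above 0 in 3 of 5 models. SAT_EC stood at 5455 TPM (4898 and 5931), SAT2pl at 3480 TPM (3373 and 3519) and ES22 at 2769 TPM (2497 and 2996), with no overlap between neighbours, and HSATII and SUBTEL_sat were at 0. Of 12 snRNA models, 6 were above 0, led by U6, a spliceosomal RNA, at 10596 TPM (9436 and 11659), with U1 at 688 TPM and U2 at 415 TPM. 7SK RNA, a regulator of transcription elongation, stood at 821 TPM (662 and 989).

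Simple repeats and tRNA models had few reads. Of 154 simple repeats, 23 were above 0 (14.9%), 6 with at least 10 reads, and they summed to 232 rebuilt reads. The (CA)n repeat stood at 1692 TPM (1370 and 2035), (TGGA)n at 536 TPM and (GGA)n at 253 TPM. Both low-complexity models were at 0. Of 57 tRNA models, 3 were above 0, on 2.998 rebuilt reads in all, namely tRNA-Pro-CCG (51.3 TPM), tRNA-Pro-CCA (51.2 TPM) and tRNA-Ser-TCY (42.9 TPM).

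Most neighbours in rank within a class could not be told apart by their bounds. In the 18 classes with at least 3 models above 0, the bounds did not overlap in 41 of 447 pairs of neighbours in rank, and the leader was separate from the next model in 12 of 18 classes. It was not in Blackjack, Charlie, Tip100, L2, ERVL and tRNA. In tRNA-derived SINEs 11 of 14 neighbour pairs were separate, in ERVK 5 of 10, in MaLR 4 of 27, in L1 6 of 101, in ERV1 3 of 112, in Tigger 2 of 23 and in ERVL 0 of 68. The leader by TPM also led by rebuilt reads in 11 of 18 classes. In ERV1 the internal part ERV1-1N-EC_I (744 TPM, 5010 nt) had 1418 reads against 676 for ERV1-1N-EC_LTR, and in satellites SAT2pl (6872 nt) had 9109 reads against 419 for SAT_EC (225 nt). In L1 the leader held 11.1% of the class TPM, and of 111 models 8 held 50% and 27 held 90% of it. In ERV1, 9 models held 50% and 48 held 90% of the class TPM.

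**Figure D4:**
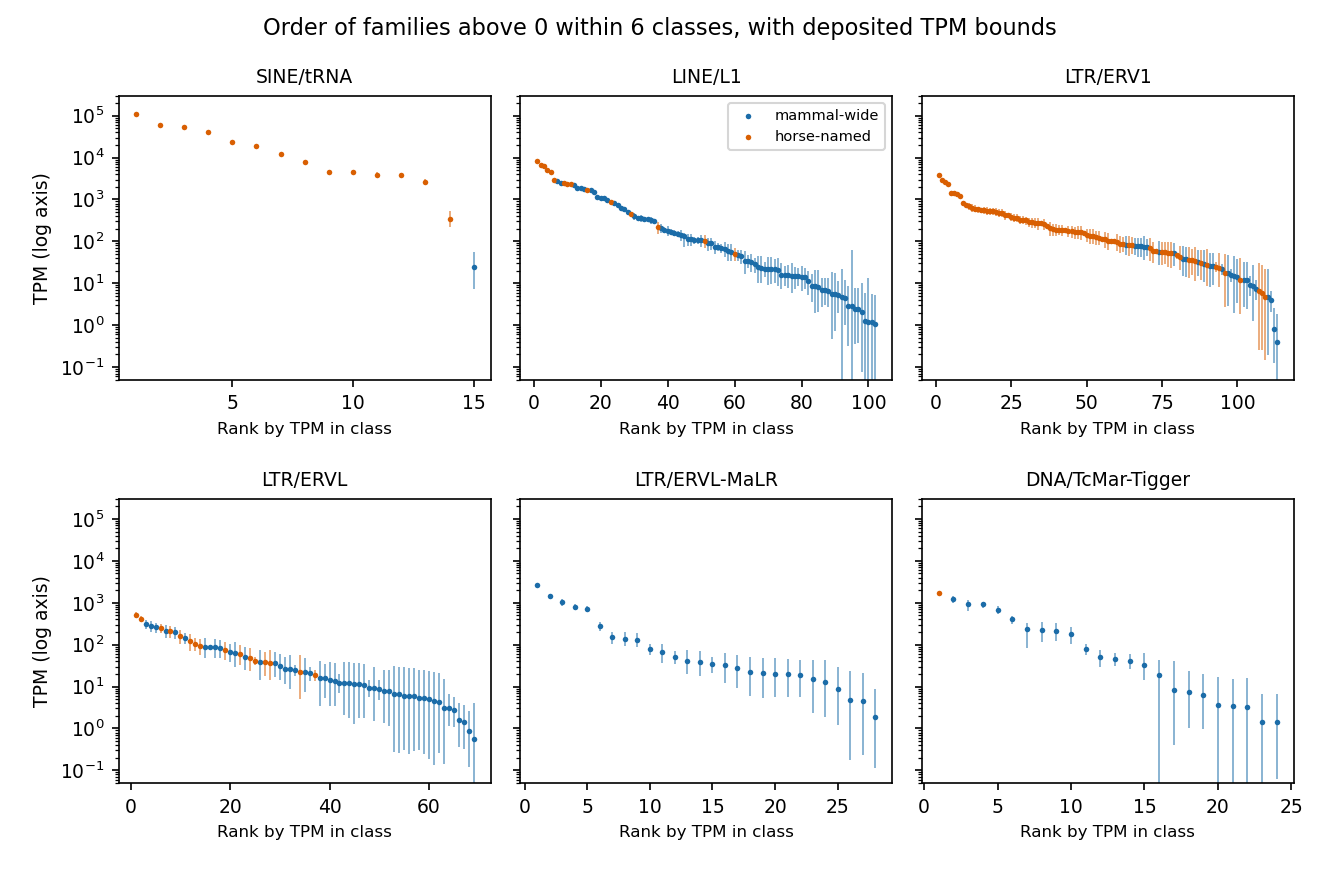
TPM (log axis) of the models above 0 against rank within 6 classes (1 panel each), horse-named and mammal-wide, with bars for the deposited bounds, which are not drawn under 0.05 TPM. The bars of the first ranks are shorter, and those of the lower ranks are long and overlap.

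Interval width followed the number of reads. Relative width is the upper minus the lower bound, divided by TPM, and its median over the 479 models above 0 was 0.951. It was 4.68 in 61 models under 1.5 reads, 2.09 in 131 models from 1.5 to 10 reads, 0.753 in 177 models from 10 to 100 reads, 0.245 in 84 models from 100 to 1000 reads, 0.0621 in 19 models from 1000 to 10000 reads and 0.0311 in 7 models above that. The width that counting alone gives at 95%, from the square root of the reads, is a yardstick for this. Over the 287 models with at least 10 reads, the deposited width was 1.01 times the counting width (median; quartiles 0.997 and 1.04), and 224 models lay within 5% of it. The narrowest relative widths were those of SSU rRNA (0.0103), LSU rRNA (0.0118), L1-2_EC (0.0302), L1-1_EC (0.0311) and L1-5_EC (0.0341).

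Among models with at least 10 reads, DNA transposons held most of those whose intervals were far wider than counting gives. Among the 287 models with at least 10 reads, the ratio passed 1.3 in 12. Of these, 9 were among the 42 DNA models with at least 10 reads, none among the 136 LTR models, whose highest ratio was 1.10, and none among the 18 SINEs, whose highest was 1.05. SSU and LSU rRNA, the 2 rRNA models with at least 10 reads, had a median ratio of 1.38. The 9 came in sets with related names, MER44D (1.86), MER44B (1.81) and MER44A (1.499), MER63D (1.65), MER63C (1.57) and MER63B (1.38), Tigger5b (1.73) and Tigger7 (1.37), and Charlie1 (1.48). MER63B, MER63C and MER63D had only 13.5, 11.3 and 10.3 reads. MER44B stood at 221 TPM (117 and 352) on 44.4 reads, and MER44D at 214 TPM (123 and 331) on 55.6 reads. MER44C, of the same name series, had a ratio of 1.11 at 911 TPM (769 and 1022). The largest ratio among the 287, 1.87, was that of L1MC4_3endX at 138 TPM (74.0 and 158). Its counterpart L1MC4_3end, of the same length of 2789 nt, stood at 2.94 TPM with bounds of 0.000578 and 61.5, the widest relative interval in the library at 20.9 and 9.41 times the counting width, on 3.11 reads. The widest with at least 10 reads were MER63D (2.02), MER63C (1.83), MER63B (1.47), Charlie1 (1.36) and LTR40b (1.29). The similarity of these model sequences was not tested.

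Some deposited values fell outside or off centre of their own bounds. SSU rRNA at 357524 TPM lay above its upper bound of 355895 TPM, and LSU rRNA at 119190 TPM lay above its upper bound of 118732 TPM. In all 26 models with at least 1000 reads, SSU and LSU rRNA included, the TPM lay above the middle of its interval. Their median position was 0.682 from the lower to the upper bound. Over all 287 models with at least 10 reads, 101 lay above the middle and the median position was 0.481. Every one of the 507 models at 0 lay under a lower bound that was itself above 0.

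**Figure D5:**
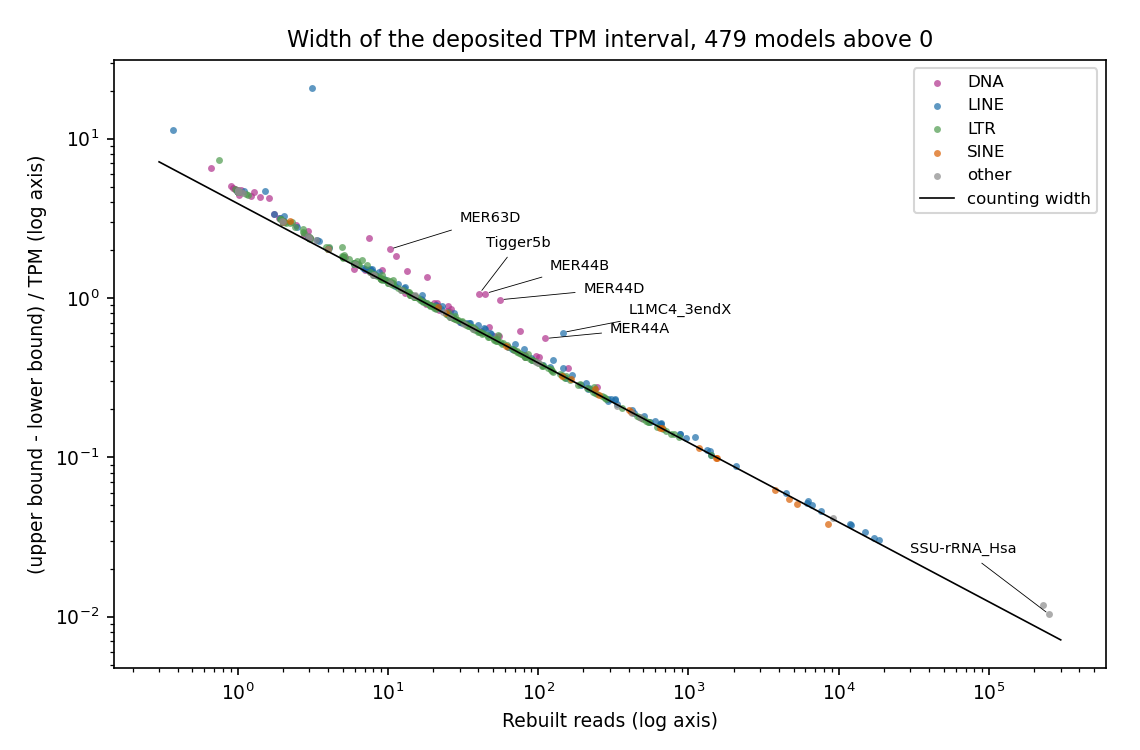
Relative interval width (upper minus lower bound, over TPM; log axis) against rebuilt reads (log axis) for the 479 models above 0, by class, with the counting width as a line. Most models lie on the line, and the points well above it between 10 and 200 reads are mainly DNA transposons such as MER44D and MER63D.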

How the data were processed

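RNA came from snap-frozen testis by TRIzol extraction, per the labels' protocols. Bowtie and RSEM stand in the submitters' processing notes with no version, beside the dog build CanFam3.1, which is named for every sample. For the horse, the build, repeat library, strand setting and interval level were not given in the sources used here. TPM values were deposited by the authors with lower and upper bounds (stored as a signal column) and model length, per the file headers. TPM was multiplied by length less 24 nt, and the product over its most frequent low value, 2616.06, was taken as reads. Of 250 low models (under 20.5 reads), 51.6% came within 0.05 of a whole number, and 5 models above 0 had under 0.95 read. The 24 nt offset held in the bat's expected counts deposited by the authors to within 0.126% over 308 models. Python 3.11.15 with pandas 2.3.3, SciPy 1.17.1 and Matplotlib 3.10.9 was used.

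With 1 library no test was made. Bounds were called separate where they did not overlap, and shares of reads carry exact Clopper-Pearson intervals. Named were the 3 highest models of each class with at least 3 above 0, the 10 highest mammal-wide elements, the 10 highest horse-named elements, horse-named models at 0, 2 of each family list, and the 5 narrowest and 5 widest intervals at 10 or more reads. Members and lists were chosen with earlier results of these data known. Alternatives changed the call, length range, naming rule and ranking. Small RNA files were not used.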

Additional observations from a re-analysis of the deposited data

How the results depend on the processing

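Of 47 alternative values, 30 were labelled the same as the main value, 17 moved and 0 reversed. Each value was labelled alone. The order of LINEs and SINEs, which was the reverse by TPM, is thus counted under moved. Some values labelled the same are in log2 units, and their size cannot be set against a main value in TPM or as a ratio. The number of models with expression, 479, became 986 when called by a lower bound above 0 (every lower bound is) and 287 at 10 or more rebuilt reads. The LINE share of element reads, 71.5%, was 15.0% by TPM, 72.4% in models of at least 200 nt and 72.6% without the highest model of each class. The SINE share, 16.8%, was 71.6%, 15.8% and 14.3% under the same settings. The LTR share, 10.2%, was 10.8% by TPM and 11.7% without the highest models, and the DNA share, 1.48%, was 2.60% by TPM. The share of horse-named families with expression was 85.6% at 10 or more reads, and that of mammal-wide families was 25.3%, or 44.4% in models of 200 to 1000 nt. The difference of medians, 224 TPM, was 2365 TPM within L1 and 72.2 TPM within ERVL, settings added after seeing the data. The median relative width, 0.951, was 0.540 at 10 or more reads. Ranking by reads kept 42 of the 54 families among the 3 highest of their class. No paired analysis was possible because each group held 1 library. Depth limits the lower ranks, where 192 models above 0 had under 10 reads.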
